A study of Homo sapiens with 21 samples.

Results

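The regions described here are stretches of DNA outside protein-coding genes that were open in every library of the study. The assay was ATAC-seq, which uses a transposase to insert adapters where DNA is accessible. The cells were microglia-like cells derived from the established human embryonic stem cell line H9. Over the 21 peak lists, peaks that overlapped by 1 bp or more were joined into regions, and a region counted as called in a library that had at least 1 peak in it. Of 166736 regions, 25599 were called in 21 of 21 libraries, and 24555 of these lay on the 22 autosomes. Those outside all protein-coding gene spans and more than 1 kb from both ends of such genes numbered 8694, which is 35.4% of the autosomal regions called in all libraries. The other autosomal regions called in every library lay inside gene spans (8563) or within 1 kb of a gene end (7298). Among the 8694 intergenic regions, 1267 lay within 1 kb of an end of a gene that is not protein-coding, and 7427 did not.

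The lines were TREM2-R47H and TREM2-KO, altered in the lipid-sensing receptor TREM2, SORL1-A528T and SORL1-KO, altered in the endosomal sorting receptor SORL1, CD33 SNP and INPP5D SNP, with an edited single-nucleotide variant at a sialic acid receptor and at an inositol phosphatase, and unedited WT, with 3 libraries each. All edits were made in H9 with CRISPR/Cas9 and are labelled homozygous, and H9 itself was heterozygous at the INPP5D variant, so WT is too. The editing protocol names a second protein change in SORL1 that the genotype labels do not tie to SORL1-KO, and how many clones stand behind a line was not stated. Every line was first made into haematopoietic progenitors, microglial differentiation then took 28 days, and 80000 sorted cells entered each reaction. The libraries titled SORL1-A528T carry the genotype label TREM2-KO and were grouped by their title, so what is said of SORL1-A528T holds for the libraries so titled. Whether the replicates are separate differentiations is not stated, and p-values therefore reflect only how far these libraries scatter, which may be technical.

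Open regions between genes are often distal regulatory elements, such as enhancers, where transcription factors displace nucleosomes and act on promoters over a distance. In macrophages and microglia the factor PU.1, encoded by SPI1, opens many of them together with partners such as C/EBP, IRF8 and AP-1. Open intergenic sites can also be promoters of non-coding genes, transfer RNA genes, insulators bound by CTCF, or repeats with many copies in the genome.

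The deposited lists give the position of each peak and hold the score 1 for every peak, so no peak height was at hand. What could be read was the order of the lines. A region's percentile is the place of its earliest peak in a list among the 25599 regions called in all libraries, with 100 for the first. The covered width is the summed length of a library's peaks in the region. A change in percentile is therefore a change of place relative to the other regions of the same library, and not of accessibility in itself. The sources used here do not say what orders the lines, and a peak on chromosome M was the first line of 21 of 21 lists.

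Libraries with the same replicate number were alike in depth and in a setting of the peak calling. Per the file headers, replicate 1 libraries held 56.5 to 67.4 M tags (M, mega), replicate 2 libraries 12.8 to 17.5 M and replicate 3 libraries 32.6 to 52.9 M. The fragment length used for calling was 74 in every replicate 1 and 3 library and 136 to 494 in replicate 2 libraries. Lists held 39736 to 102891 peaks, and 9.04% to 22.7% of the peaks of a list lay in the intergenic regions described here. Requiring all 21 libraries makes the count depend on the shortest lists. A further 2896 intergenic regions were called in 20 of 21 libraries, and 1578 of them (54.5%) were missed by SORL1-A528T 2 alone, the library with the shortest list. Without that library the count was 10274, and without the 7 replicate 2 libraries it was 16659.

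The cell type label was set beside marker lists by asking which genes have an end within 1 kb of a region called in all libraries. This held for 16 of 22 homeostatic microglial genes, 17 of 26 myeloid transcription factors and 12 of 14 housekeeping genes, against 44.3% of all 19122 autosomal protein-coding genes. It held for 0 of 11 pluripotency genes, 2 of 17 neural genes, 1 of 17 erythroid and mast cell genes, 2 of 14 mesenchymal genes and 4 of 15 lymphoid genes. For genes of activated microglia it held for 13 of 24, and for chemokines for 4 of 17. The homeostatic genes TMEM119, AIF1, C1QC, FCGR1A, SLCO2B1 and SLC2A5 had no end within 1 kb of such a region. The same was true of IRF8, RUNX1 and MEF2C, among other myeloid factors.

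Several of the regions lay over miRNA genes or over promoters of miRNA host genes, and their mature sequences are shown because they are the products of the genes at these regions. RefSeq's miRNA sequence table (GRCh38.p14) has 13 hairpins under 12 of the regions, with 19 mature arms and 19 different seeds, and RefSeq's gene table, which lists further miRNA genes, has 16 under 15. A further comparison by host gene found 16 long non-coding host genes with a promoter under a region, and 27 miRNA genes inside them. The seed, bases 2 to 8 from the 5′ end, is in capitals. The arms of let-7i, let-7a, let-7d and let-7f share the seed GAGGUAG, and miR-17-5p and miR-20a-5p share AAAGUGC.
let-7i-5p: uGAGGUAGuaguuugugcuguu
let-7a-5p: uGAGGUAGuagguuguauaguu
let-7d-5p: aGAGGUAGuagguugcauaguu
let-7f-5p: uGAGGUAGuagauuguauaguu
miR-17-5p: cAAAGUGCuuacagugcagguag
miR-20a-5p: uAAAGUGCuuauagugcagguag
miR-146a-5p: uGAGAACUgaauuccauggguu
miR-143-3p: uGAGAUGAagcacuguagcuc
miR-145-5p: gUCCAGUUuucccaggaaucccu
miR-8078: gGUCUAGGcccggugagagacuc
The hairpins of let-7i, miR-143, miR-145 and miR-8078 lay under the regions themselves. For let-7a, let-7d and let-7f (host MIRLET7A1HG), for miR-17 and miR-20a (host MIR17HG) and for miR-146a (host MIR3142HG) only the host's promoter did. These miRNAs, apart from miR-8078, were chosen for display after their values had been seen.

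The host gene promoters under these regions ranged over nearly the whole order, with mean percentiles from 13.2 to 98.7 over the 16 hosts. The region over the MIR17HG promoter, whose transcript carries the growth-promoting miR-17 to miR-92a cluster, had percentiles from 97.8 to 99.4 with a median of 98.9. The region over MIRLET7A1HG had percentiles from 97.0 to 99.5 with a median of 98.6. Over MIRLET7I, a member of the let-7 family of differentiation-linked miRNAs, percentiles ran from 93.2 to 97.6 with a median of 95.7. The MIR3142HG region, at the host of miR-146a, a brake on NF-kB signalling, ranged from 79.5 to 98.2 with a median of 94.9. These 4 are among the highest, and others stood lower: MIR181A1HG ranged from 19.8 to 85.3 with a median of 62.6, MIR550A3HG from 33.4 to 67.8, MIR4422HG from 27.2 to 61.2 and MIR1915HG from 2.10 to 56.8.

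The region over MIR143 and MIR145, known from smooth muscle, stood lower and varied more, with percentiles from 14.9 to 83.7 and a median of 49.8. Over MIR155HG, the host of miR-155, which is induced in activated macrophages, the range was 53.5 to 95.05 with a median of 90.4. The low values there belonged to one line, as given below with the line comparisons.

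Promoter sequences of MIR155HG and MIR3142HG are shown because both lay wholly under a region open in all libraries and both genes belong to the inflammatory response. Both, and the NF-kB motif, were chosen after values had been seen. They run from 250 bases before the annotated start to 50 after it, on the plus strand of GRCh38.p14, and come from RefSeq. Capitals mark matches to the AP-1 motif, TGANTCA, to the TATA box, TATAAA, and to the NF-kB motif.
MIR155HG promoter, chr21:25561895-25562194: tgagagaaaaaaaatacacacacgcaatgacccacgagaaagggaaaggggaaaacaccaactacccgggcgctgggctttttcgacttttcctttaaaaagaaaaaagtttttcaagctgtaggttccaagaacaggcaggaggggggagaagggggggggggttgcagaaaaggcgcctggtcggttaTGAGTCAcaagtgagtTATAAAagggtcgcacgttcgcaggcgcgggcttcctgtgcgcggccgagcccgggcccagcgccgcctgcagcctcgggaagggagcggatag
MIR3142HG promoter, chr5:160468001-160468300: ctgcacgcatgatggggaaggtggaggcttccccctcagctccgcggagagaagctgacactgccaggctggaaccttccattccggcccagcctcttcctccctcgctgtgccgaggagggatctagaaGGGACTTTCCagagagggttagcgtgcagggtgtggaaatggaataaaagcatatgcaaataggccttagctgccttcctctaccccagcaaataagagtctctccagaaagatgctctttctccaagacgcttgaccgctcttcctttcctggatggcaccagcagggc
The MIR155HG window held 1 match to TGANTCA and 1 to TATAAA, and the MIR3142HG window held 1 to the NF-kB motif.

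These windows were set beside all promoters. Of 7073 promoters of long non-coding RNA genes more than 1 kb from protein-coding genes, 473 (6.69%), from 432 genes, lay under 407 of the regions. Their median GC content was 55.7%, against 45.3% in the 5698 lncRNA promoters under no region and 62.7% in the 21155 promoters of protein-coding genes. The median number of CpG dinucleotides was 11, against 3 and 21. Matches on either strand to GAGGAAGT, a PU.1-type ETS sequence, were found in 5.71% of the 473, against 1.56% of those under no region and 2.58% of all 33724 promoters of the table. For CCGGAAGT, the ETS sequence common at housekeeping promoters, which shares the letters GGAAGT with it, the shares were 2.11%, 0.737% and 4.18%. TGANTCA was found in 13.7%, 11.8% and 7.67%, TGACGTCA (CRE) in 2.96%, 0.439% and 1.87%, and the NF-kB motif in 0.634%, 0.597% and 0.572%. TATAAA was found in 10.6%, 19.95% and 11.6%, CCAAT in 37.6%, 37.6% and 34.4%, and GGGCGG (GC box) in 37.8%, 11.3% and 45.0%. The 902 lncRNA promoters under regions called in 1 to 20 libraries had a median GC content of 51.0%. They held GAGGAAGT in 4.88%, CCGGAAGT in 2.00%, TGANTCA in 13.6%, TGACGTCA in 1.44% and GGGCGG in 27.4%. The GAGGAAGT share was thus not particular to regions open in every library. A match describes letters only, and GC content moves with both the set and the GC-rich motifs.

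Intergenic regions open in all libraries stood in the order about where regions inside genes stood, and far below regions at gene ends. Per library their median percentile averaged 39.8 ± 2.99 (SD over 21 libraries), against 41.1 ± 1.62 for regions inside genes and 73.0 ± 4.03 for gene-end regions. They ranked below gene-end regions in 21 of 21 libraries, by 33.2 ± 6.95 percentile points (permutation test with 100000 sign flips over libraries, two-sided, p = 2e-05, the smallest the flips can give, and 4e-05 after Benjamini-Hochberg adjustment over 4 such tests). The difference from regions inside genes was -1.32 ± 1.77 (same permutation test, p = 0.0035, adjusted 0.0035), lower in 14 of 21 libraries. It depended on the replicate number: -2.97 ± 0.60 in replicate 1, 0.88 ± 0.62 in replicate 2 and -1.87 ± 0.73 in replicate 3 libraries (SD, n = 7 each). With each list limited to as many peaks as the shortest holds it was 0.20 (permutation test, p = 0.617), and it did not pass without replicate 1, without replicate 3 or with regions defined without the replicate 2 lists (permutation p = 0.252, 0.0834 and 0.423). With the 7 lines as the unit in place of the 21 libraries, exact sign flips gave p = 0.0156 for both differences in percentile. That is the smallest p that flips over 7 lines can give. Each line holds 1 library of every replicate number, so the lines share that mix and do not separate the differences from it. All 3 classes were called in every library by the same rule, so the order within that set was not used to choose them.

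Widths followed the same pattern. The median covered width per library averaged 882 ± 95 bp, against 903 ± 107 bp for regions inside genes and 1532 ± 238 bp at gene ends. It was below the gene-end value in 21 of 21 libraries, by 649 ± 163 bp (p = 2e-05, adjusted 4e-05, permutation test as above). Against regions inside genes the difference was -20.7 ± 22.5 bp (permutation test, p = 0.0003, adjusted 0.0004), with -39.6 ± 20.1 bp in replicate 1, 2.79 ± 8.65 bp in replicate 2 and -25.1 ± 11.3 bp in replicate 3 libraries. With the 7 lines as the unit, exact sign flips gave p = 0.0156, again the smallest they can give, for both differences in width. The 7625 regions with a single peak in every library made up 87.7% of the intergenic set.

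**Figure D1:**
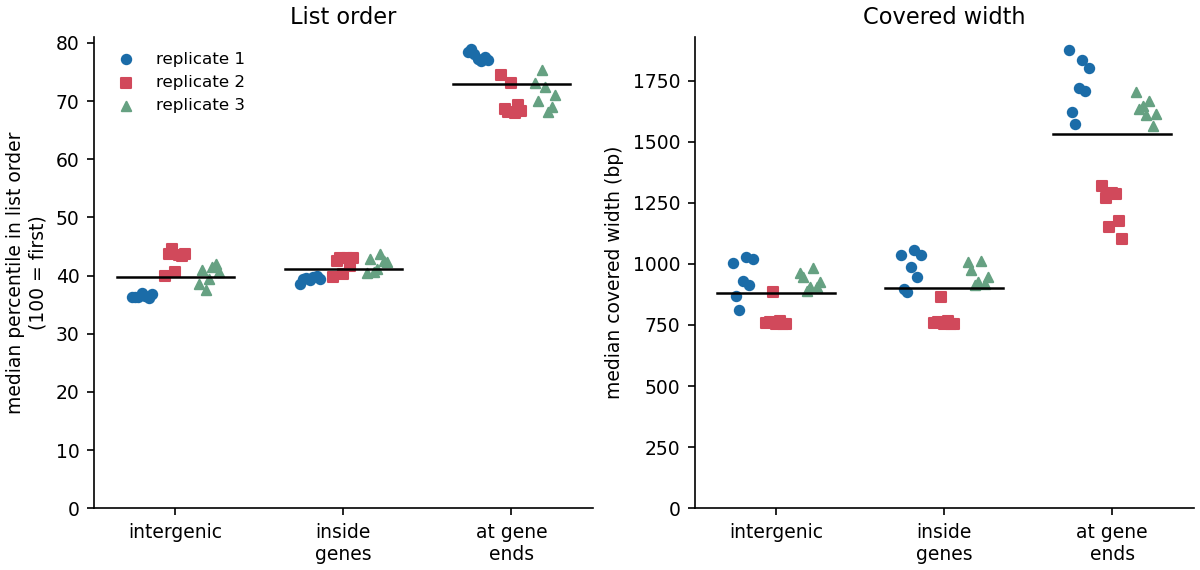
Median percentile (left, 100 is the first of the 25599 regions called in all libraries) and median covered width in bp (right) of intergenic, inside-gene and gene-end regions called in all 21 libraries. Each point is 1 library, colours and shapes give the replicate number and black bars the mean over libraries; gene-end regions (73.0 and 1532 bp) lie above the other 2 classes, which overlap.

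The share of regions open in every library was slightly lower for intergenic regions than for regions inside genes, and far lower than at gene ends; these shares are descriptions. Of all 77424 autosomal intergenic regions, 11.2% were called in 21 of 21 libraries and 30.8% in 1 library. The shares were 12.8% and 24.1% for the 67098 regions inside genes, and 46.7% and 7.72% for the 15644 at gene ends. At the top of the order stood 312 intergenic regions (3.59%) with a mean percentile of 90 or more, against 3.76% of regions inside genes and 20.5% at gene ends. Above 99 there were 27 intergenic regions, 13 inside genes and 153 at gene ends.

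Regions on either side of the limit of 1 kb had like values. The 30 intergenic regions just past it, up to 1200 bp from a gene end, had a median mean percentile of 43.8, and the 30 regions just short of it one of 41.5. The distance to the nearest protein-coding gene had a median of 49.9 kb and reached 4783 kb. Within 100 kb of a gene lay 65.2% of the regions, and 650 (7.48%) lay over 500 kb away. The share of intergenic regions that were open in all libraries was 12.4% at 1 to 5 kb, 13.7% at 10 to 50 kb, 9.92% at 100 to 500 kb and 6.44% at 500 to 1000 kb. The median mean percentile was 38.8, 40.04, 36.5 and 35.9 in the same bins.

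**Figure D2:**
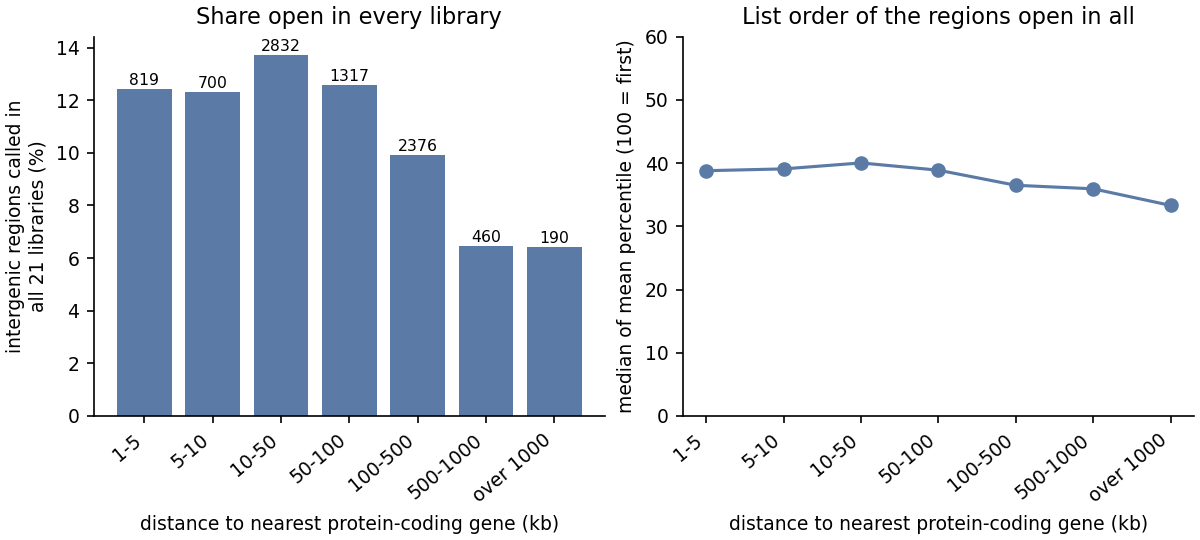
Left, percent of intergenic regions in each distance bin that were called in all 21 libraries, with their number above each bar; right, median of their mean percentile (100 is first). The share is 12.3% to 13.7% up to 100 kb and 6.42% to 6.44% beyond 500 kb, while the percentile moves only between 33.3 and 40.04.

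Among the intergenic regions, the first places were mostly held by ones far from any protein-coding gene. Distances of the first 10 ran from 2.00 to 816 kb. The highest mean percentile, 99.99, was that of chr3:93470213-93471236, 402 kb from PROS1 and over no annotated gene. The next, chr17:22520925-22525083, lay over MTRNR2L1 and MTND1P15, nuclear copies of mitochondrial DNA, at 99.98 to 99.99 in all libraries. Others of the first 10 were chr4:49708303-49712315, chr16:46380597-46402050, chr21:6358885-6377365, chr16:34581078-34597187, and both chr5:49656175-49662111 and chr5:49599376-49603342, which share the nearest gene EMB. The region chr18:105780-112671 held MIR8078, the long non-coding gene LOC112268408 and the pseudogene ROCK1P1, and chr8:43237246-43242813 had HGSNAT as its nearest gene. SDs over the 21 libraries were 0.071 percentile points or less in all 10. Nuclear copies of mitochondrial DNA share reads with their source, and the sources used here do not say how reads with several matches were treated, so the place of such regions is uncertain. It was not tested whether the other regions of the first 10, the widest or the farthest lie in repeated sequence. Their place is uncertain as well.

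Wide regions stood apart as well. Intergenic regions over 10 kb numbered 33, with 11 of them on chromosome 21, against 3 inside genes and 16 at gene ends. The widest, chr21:10651400-10739927 near TPTE, spanned 88.5 kb. It stood at a percentile of 89.4 to 99.9 in replicate 1, 0.40 to 41.2 in replicate 2 and 0.035 to 96.8 in replicate 3 libraries. The same held for the other 4 regions with the largest SD (38.0 to 42.6), of which one lay near TPTE as well and the others near LOC124903442, LOC101927345 and WSB1. In all 5, every replicate 1 library stood above every replicate 2 library. MALAT1, an abundant nuclear non-coding RNA, lay under a region that behaved likewise, with 67.5 to 94.0 in replicate 1, 0.070 to 63.0 in replicate 2 and 2.43 to 58.1 in replicate 3 libraries.

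The lowest mean percentiles, 1.90 to 2.51, belonged to regions near RP1, MRPL32, TAAR9, NPBWR1 and NYAP2. The farthest from any protein-coding gene were a pair on chromosome 22, 4.78 and 4.31 Mb from OR11H1, with mean percentiles of 62.5 and 99.4.

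Regions over small non-coding genes stood higher in the order than regions over no gene. No annotated gene of any kind lay under 5773 regions (66.4%), and their median mean percentile was 37.0. The 2592 regions over lncRNA genes had a median of 40.9, the 327 over pseudogenes 47.1, the 23 over snRNA genes 58.2, the 40 over tRNA genes 65.1 and the 15 over miRNA genes 82.4. Median covered width rose in the same order. It was 859 bp over no gene, 1406 bp over snRNA, 1555 bp over tRNA and 1789 bp over miRNA genes. The part of width in these places was not tested. Of the genes themselves, 51 of 350 intergenic tRNA genes (14.6%) and 24 of 106 snRNA genes (22.6%) lay under a region, against 16 of 574 miRNA genes (2.79%) and 144 of 9131 pseudogenes (1.58%). All 4 Y RNA genes and 3 of 4 vault RNA genes did. Mean percentiles ranged from 9.31 to 92.2 over tRNA genes and from 28.1 to 94.2 over snRNA genes. TERC, the RNA template of telomerase, lay under a region at 72.9 to 91.9 with a median of 82.8. SNORD50A and SNORD50B, which guide RNA methylation, lay under a region at 96.1 to 99.3 with a median of 98.6, within the host SNHG5. Theirs was the highest among snoRNA genes, of which 11 of 529 (2.08%) lay under a region, at mean percentiles from 20.5 to 98.4. Many tRNA and snRNA genes have near-identical copies, so which copy the reads came from is uncertain.

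**Figure D3:**
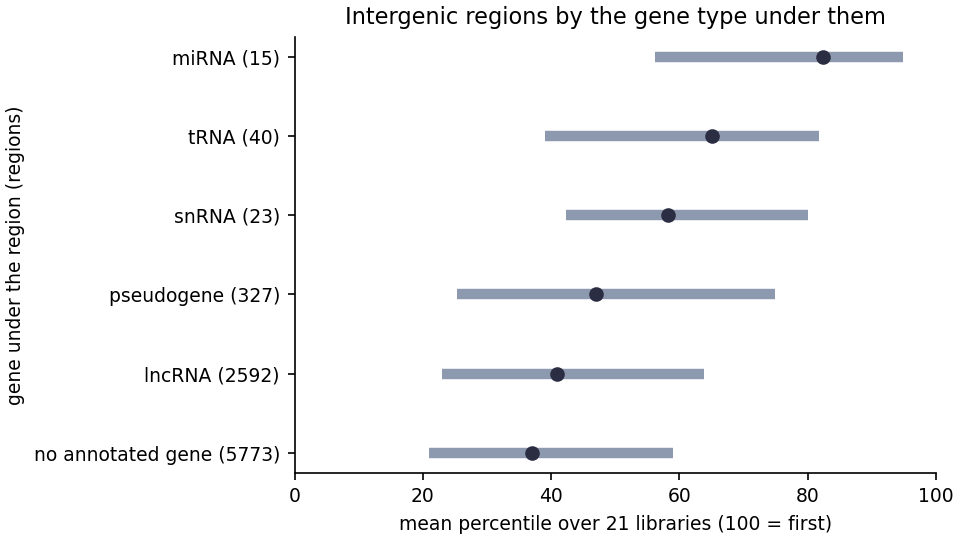
Mean percentile over 21 libraries (x, 100 is first) of intergenic regions by the type of gene under them, with the number of regions in brackets. Dots are medians and bars run from the lower to the upper quartile; the medians run from 82.4 over miRNA genes to 37.0 over no gene, and the bars overlap.

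Regions were unevenly spread over genes and the gaps between them. Of 19122 autosomal protein-coding genes, 3924 (20.5%) were the nearest gene of at least 1 region, 411 of 5 or more and 73 of 10 or more. The most belonged to HS3ST1, a heparan sulfate sulfotransferase (21), GPC5, a cell-surface glypican (20), SPRY1, an inhibitor of receptor tyrosine kinase signalling, and TBL1XR1, a part of the NCoR corepressor complex (17 each). EDEM1, GOT2 and ZNF608 had 16 each. PTPRC, which encodes the leukocyte antigen CD45, had 15, as did ATP2B1, MAT2B, SPRY2, WSB1 and ZEB2. The gene-free DNA nearest to these genes ran from 652 kb (ATP2B1) to 2865 kb (WSB1), against a median of 18.7 kb over all genes. Its part in these counts was not tested. The gap between MAT2B and TENM2 held 27, SLITRK5 to GPC5 26, HS3ST1 to RAB28 25, and SPRY1 to ANKRD50 and ZEB2 to ACVR2A 24 each. In that order these long gaps held 7.80, 6.99, 12.9, 19.04 and 7.22 per Mb. Per length the densest gaps with 5 or more were short ones: 114 per Mb between OR10P1 and TMT1B and between TNFAIP8 and HSD17B4, against 5.23 per Mb over all gaps. The median spacing of neighbouring regions was 95.8 kb, and 1468 neighbours (16.9%) lay under 10 kb apart.

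Myeloid transcription factors often had a region nearest to them. This held for 20 of 26 of them, with 62 regions in all, or 7.17 per Mb of the gene-free DNA nearest to these genes, against 20.5% and 5.24 per Mb over all genes. ZEB2, a repressor that keeps macrophage identity, had 15, MEF2C 6, and IKZF1, KLF4 and KLF6 4 each. SPI1, IRF8, RUNX1 and CEBPA had 1 each. The gene-free DNA nearest to a gene had a median of 191 kb in this list, against 18.7 kb over all genes, and its part in the counts was not tested.

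Of 24 genes of activated microglia, 12 had a region, with 29 in all (12.01 per Mb). FABP5, a fatty acid carrier, had 6, TNFAIP3, an inhibitor of NF-kB, 5, and CTSB, a lysosomal protease, 3. NLRP3, an inflammasome sensor, had 2, one of them at a mean percentile of 93.6. Early response genes had regions at 11 of 19 (13.2 per Mb), with 11 at MYC, 7 at DUSP6, a phosphatase of ERK, and 5 at JUN. Of 17 chemokines 5 had one (18.3 per Mb), with 6 at CXCL8, the neutrophil attractant, and 2 at CCL20.

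Of 22 homeostatic microglial genes 4 had a region (18.2%, against 20.5% over all genes), with 3 at CX3CR1, the fractalkine receptor, and 1 each at ITGAM, MERTK and SLCO2B1 (16.0 per Mb). At Alzheimer's risk genes 8 of 26 had one (15.6 per Mb), with 5 at SORL1, one of the edited genes, and 3 each at BIN1, ECHDC3 and PICALM. Housekeeping genes had regions at 3 of 14 (16.2 per Mb), so a density of this size was not limited to microglial lists. Lists of other cells gave 2.42 per Mb for pluripotency genes (4 of 11), 4.76 for neural (7 of 17), 4.33 for mesenchymal (5 of 14), 4.66 for lymphoid (4 of 15) and 7.96 for erythroid and mast cell genes (3 of 17, of which KIT held 4 of the 6 regions). DPPA4 had 3 and BCL11B 3. The nearest gene is a neighbour by position and need not be the gene an element acts on.

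The order of the intergenic regions followed replicate number at least as much as line. Their median percentile was 36.1 to 36.9 in replicate 1, 39.97 to 44.6 in replicate 2 and 37.5 to 42.01 in replicate 3 libraries, and the first 2 ranges did not overlap. By line the means were 38.2 ± 1.87 in TREM2-R47H, 40.3 ± 3.81 in TREM2-KO, 39.5 ± 4.47 in SORL1-A528T, 39.0 ± 1.85 in SORL1-KO, 40.5 ± 3.65 in CD33 SNP, 40.5 ± 3.87 in INPP5D SNP and 40.4 ± 3.50 in WT (SD, n = 3 each). All of these overlap. Spearman's rho of the order over the 8694 regions had a median of 0.853 between libraries of the same line, 0.864 between libraries of the same replicate number and 0.802 between the rest, which is a description across regions that share libraries.

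**Figure D4:**
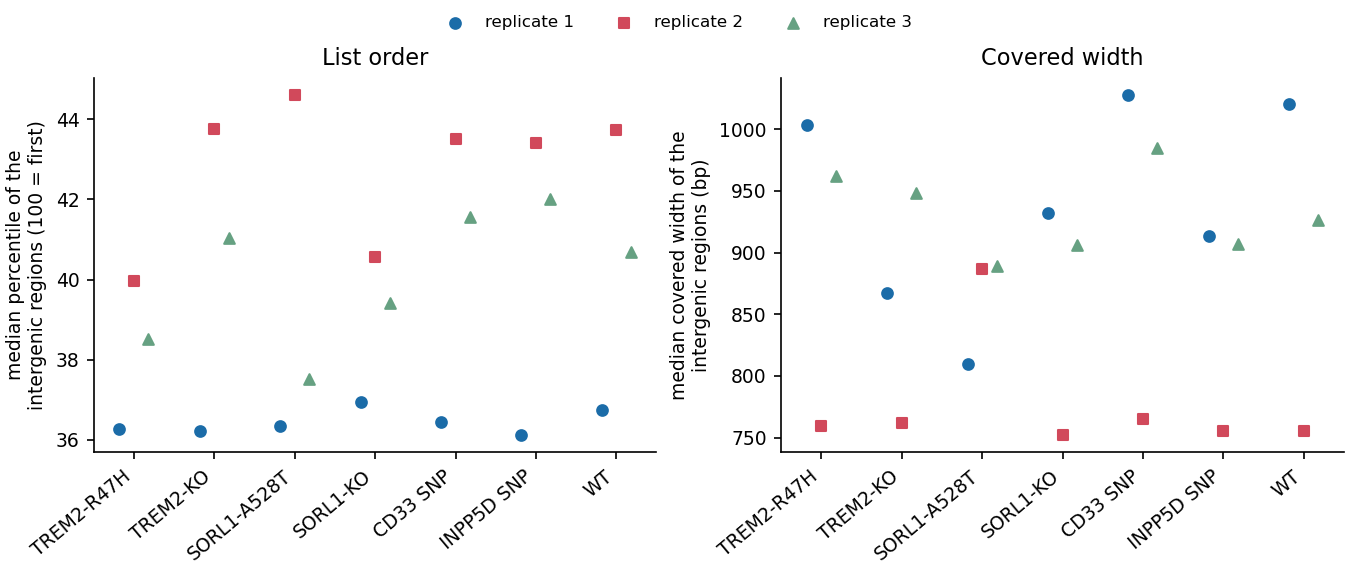
Median percentile (left, 100 is first) and median covered width in bp (right) of the 8694 intergenic regions in each of the 21 libraries, by line and replicate number. Neither axis starts at 0; replicate 1 libraries are lowest in percentile (36.1 to 36.9) in every line, and 6 of 7 replicate 2 libraries are the narrowest of their line.

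In each line the place of single regions was then set against WT with limma, fitted to all 25599 regions and all 21 libraries, with Benjamini-Hochberg adjustment over all regions. The 6 comparisons share the WT libraries. Between TREM2-R47H and WT, 29 of the 8694 intergenic regions (0.334%) passed the threshold of 0.05, against 0.316% of all regions tested. Of these, 9 were higher and 20 lower in TREM2-R47H, against 0.102% higher and 0.215% lower among all regions. Between SORL1-A528T and WT, 10 passed (0.115%), against 0.0703% of all regions. Of these, 1 was higher and 9 lower in SORL1-A528T, against 0.0156% higher and 0.0547% lower among all regions. The 2 sets had 0 regions in common, and with so few calls among 8694 regions this says little about the 2 lines. In TREM2-R47H the share among intergenic regions was thus close to that of all regions, and in SORL1-A528T both shares rest on few calls. These counts depend on the libraries and the scale used.

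The other lines gave no call among the intergenic regions when all libraries were used. Without replicate 1 SORL1-KO had 5, against 10 among all 25599 regions. It had 2 without SORL1-KO 1 and 2 without WT 1, against 8 and 5, and INPP5D SNP had 1 without WT 1, against 3. Counts at an unadjusted limma p under 0.05 are set beside those among all 25599 regions, as descriptions. In TREM2-KO 0 passed, against 0% of all regions, with 153 higher and 166 lower unadjusted, against 397 and 403. In SORL1-KO (191 and 278, against 474 and 666), CD33 SNP (126 and 63, against 305 and 157) and INPP5D SNP (164 and 150, against 392 and 375) 0 passed as well, against 0.00781% of all regions in each. The strongest of these were regions near PENK in TREM2-KO (difference -40.4, SE 6.03, adjusted p = 0.0723, limma), RASGEF1B in SORL1-KO (36.8, SE 5.92, adjusted p = 0.0757, limma), PGAP1 in INPP5D SNP (-31.3, SE 6.17, adjusted p = 0.387, limma) and OR10P1 in CD33 SNP (-46.6, SE 8.81, adjusted p = 0.658, limma). The PGAP1 region was lower in TREM2-R47H too (6.85 ± 4.01, against 52.8 ± 16.0 in WT, adjusted p = 0.00537, limma), and it stood at 20.7 ± 2.12 in SORL1-KO. When TREM2-R47H against WT was simulated, 41% of regions shifted by 30 points and 3% of those shifted by 10 were found, with 6 false calls. Smaller shifts were thus mostly missed there. The simulation used independent noise on a scale without bounds and no likeness between same-numbered libraries. Its rates may therefore not hold for the real lists.

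The region chr8:89800629-89802527, 9.56 kb from RIPK2, the kinase below the NOD receptors, stood at 77.3, 73.0 and 70.1 in TREM2-R47H, against 37.8, 5.95 and 21.3 in WT. All 3 TREM2-R47H libraries were above all WT libraries. The difference was 51.8 points (SE 7.18, adjusted p = 0.00537, limma). Among the other 15 libraries the percentile ran from 0.29 to 61.5, low in TREM2-KO (4.13 ± 5.60) and SORL1-A528T (6.23 ± 6.44) and higher in SORL1-KO (52.1 ± 11.4). So the lines spread widely here, and WT was not at one end.

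Near SGCD, the gene of delta-sarcoglycan, chr5:155710816-155712524 stood at 0.13, 1.19 and 1.08 in TREM2-R47H, against 44.9, 61.7 and 48.5 in WT. That put it among the last of the regions called in all libraries in each TREM2-R47H library. The difference was -50.9 (SE 6.81, adjusted p = 0.00537, limma), and in the other 15 libraries the percentile ran from 34.7 to 67.2, above all 3 TREM2-R47H values. The same shape was seen at chr6:21438278-21439917, 154 kb from SOX4, a transcription factor of progenitor cells. Its percentiles were 0.51, 0.64 and 2.43 in TREM2-R47H, against 39.1, 60.1 and 49.8 in WT and 24.1 to 75.8 in the other 15 libraries (difference -48.5, SE 7.83, adjusted p = 0.0139, limma). At chr15:96042473-96044143, 282 kb from the nuclear receptor gene NR2F2, the values were 3.598, 21.3 and 13.4 in TREM2-R47H, against 55.8, 77.1 and 60.9 in WT (difference -51.8, SE 7.35, adjusted p = 0.00555, limma). Here 1 of the other 15 libraries, at 21.5, came close to the TREM2-R47H range.

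Further regions higher in TREM2-R47H lay near DENND4C (53.1 ± 7.56, against 7.07 ± 5.60 in WT), PIK3C3, a lipid kinase of autophagy (53.0 ± 8.25, against 15.3 ± 11.2), XPR1, a phosphate exporter (47.2 ± 4.07, against 11.3 ± 8.37) and PCDHB1 (42.8 ± 5.13, against 8.62 ± 7.63). Further lower ones lay near TMEM132C (9.45 ± 1.93, against 59.6 ± 9.25) and SERPINA3, a protease inhibitor (9.78 ± 2.34, against 59.9 ± 7.65; SD, n = 3 each), with limma adjusted p between 0.0155 and 0.0282 for these 6. WT was at or near the low end of the lines at some of them: near DENND4C, INPP5D SNP stood at 40.2 ± 14.9 and SORL1-KO at 37.2 ± 9.44, and near XPR1 WT had the lowest mean of the 7 lines, with SORL1-KO at 36.1 ± 5.98. In the 15 libraries of the other edited lines percentiles reached 53.4 near DENND4C and 44.6 near XPR1, within the TREM2-R47H range, but 32.4 near PIK3C3 and 30.3 near PCDHB1, below it. They went down to 18.1 near TMEM132C and 30.2 near SERPINA3, above it. Over all 29 the size of the difference ran from 16.3 to 51.8 points among the higher and from 13.997 to 51.8 among the lower. Leaving out 1 library at a time gave 3 to 140 calls: 8, 10 and 18 without TREM2-R47H 1, 2 and 3, and 140, 3 and 5 without WT 1, 2 and 3. Among all 25599 regions the same fits gave 29, 33 and 43, and 335, 13 and 15. Of the 10 regions named, those near RIPK2 and SGCD passed in all 6 such fits, and the other 8 lost the call without WT 2 at least.

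In SORL1-A528T the smallest adjusted p was that of chr5:120935172-120937062, 141 kb from PRR16. It stood at 60.6, 50.1 and 50.1 in SORL1-A528T, against 87.6, 85.0 and 82.2 in WT. The difference was -31.3 (SE 3.597, adjusted p = 0.00287, limma) and passed in all 6 fits with 1 library left out. The other 15 libraries stood at 67.5 to 89.6, all above SORL1-A528T.

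The region over MIR155HG, chr21:25559628-25564373, whose promoter is printed above, stood at 69.4, 53.5 and 56.6 in SORL1-A528T, against 91.1, 87.8 and 90.5 in WT. Its difference was -30.0 (SE 4.82, adjusted p = 0.0308, limma). In the other 15 libraries it stood at 77.5 to 95.05, so the 3 SORL1-A528T libraries were the lowest of all 21. The call was kept in 1 of 6 fits with 1 library left out, and the adjusted p reached 0.166.

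Higher in SORL1-A528T was chr3:127074361-127075814, 37.0 kb from PLXNA1, a semaphorin receptor, at 90.8, 89.5 and 74.2, against 53.0, 30.4 and 27.4 in WT (difference 47.9, SE 8.01, adjusted p = 0.0408, limma). SORL1-KO libraries stood at 79.8 to 83.9, within the SORL1-A528T range. The SORL1-KO difference from the same WT libraries was 44.7 (SE 8.01) and did not pass (adjusted p = 0.124, limma). In TREM2-R47H the percentile was 33.2 ± 3.28 and in INPP5D SNP 35.5 ± 0.33. Other regions lower in SORL1-A528T lay near ODF2L (9.34 ± 1.23, against 47.4 ± 7.06 in WT), LOC124902897 (19.1 ± 11.5, against 55.8 ± 9.30) and SPON1 (22.4 ± 8.71, against 54.2 ± 2.23; SD, n = 3 each), with limma adjusted p of 0.0431, 0.0273 and 0.0446. TREM2-KO, the genotype that the labels of the SORL1-A528T libraries give, was low at the same 3 regions, with 19.2 ± 11.0, 23.6 ± 2.51 and 30.3 ± 9.07 (SD, n = 3 each), and did not pass (limma adjusted p of 0.632, 0.191 and 0.632). At the other named regions TREM2-KO stood nearer to WT than to SORL1-A528T. It had 71.1 ± 3.84 near PRR16, 87.6 ± 9.04 over MIR155HG and 45.3 ± 5.44 near PLXNA1 (SD, n = 3 each). There SORL1-A528T had means of 53.6, 59.8 and 84.8, and WT 84.9, 89.8 and 36.9. Leaving out 1 library gave 4, 6 and 3 calls without SORL1-A528T 1, 2 and 3, and 3, 1 and 2 without WT 1, 2 and 3. Among all 25599 regions these fits gave 12, 13 and 6, and 6, 2 and 6. Of the 6 regions named, all but the one near PRR16 lost the call without WT 2. Of the 16 regions named with a call in the TREM2-R47H and SORL1-A528T comparisons, 0 kept it without the replicate 2 libraries, 0 without the replicate 3 libraries and 3 when percentiles were taken in the whole list, where TREM2-R47H had 1 call in all among the intergenic regions.

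**Figure D5:**
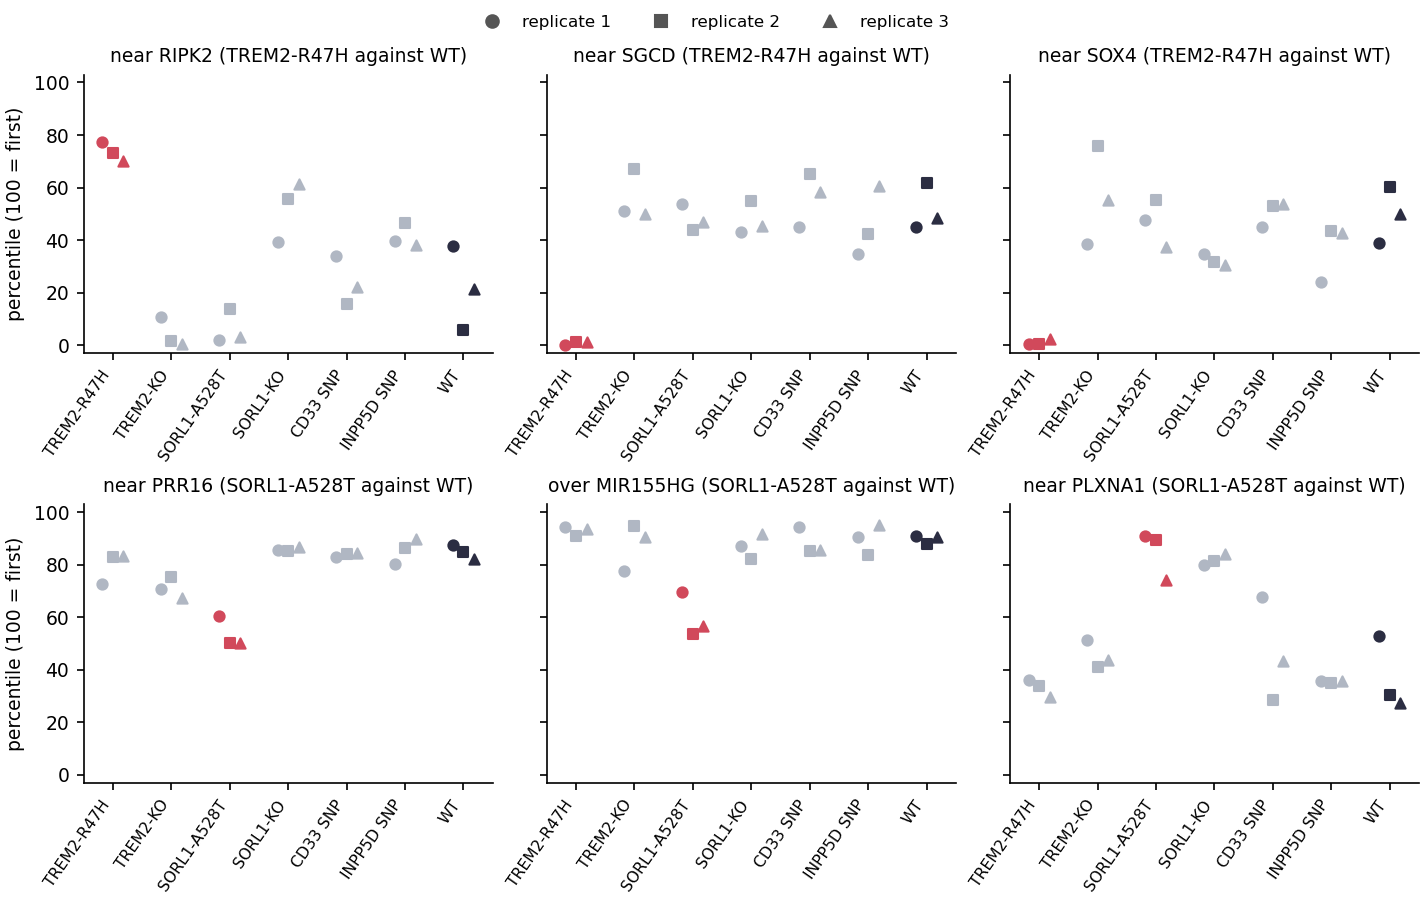
Percentile (y, 100 is first) of 6 intergenic regions in all 21 libraries, by line; shapes give the replicate number, red marks the line compared, black WT and grey the other lines. Near SGCD and SOX4 the 3 TREM2-R47H libraries lie at 2.43 or below, and near PRR16 and over MIR155HG the 3 SORL1-A528T libraries lie below all others.

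Covered width gave 0 calls among the intergenic regions in each of the 6 comparisons (limma, adjusted over all regions), against 0.00391% of all regions in SORL1-A528T and 0% in the other 5. At an unadjusted limma p under 0.05, 107 were wider and 155 narrower in TREM2-R47H, against 256 and 300 among all 25599 regions. In SORL1-A528T 66 were wider and 221 narrower, against 132 and 529. These unadjusted counts are descriptions. Without replicate 2, TREM2-KO had 1 call and SORL1-A528T 11, against 1 and 22 among all regions. In SORL1-A528T there was 1 with the largest peak in place of the sum, 1 without SORL1-A528T 1 and 1 without WT 2. The smallest p in TREM2-R47H was again that of the region near SGCD.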

How the data were processed

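ATAC-seq peak lists of 21 libraries were analysed, with 3 libraries for each of 7 lines, grouped by title. Cutadapt 1.18, STAR 2.7, HOMER 4.10 and DESeq2 are named in the submitters' processing notes. Per the file headers, HOMER called peaks per library (peak size 500, minimum distance 1000) that held 4.00 times the tag density found locally, within 10000 bp, at a Poisson p-value of 1.00e-04. The deposited score is 1 for every peak, and the other columns used are positions. The genome build, and any shift of reads to the transposase's cutting site, are not given in the sources used here. Genes came from RefSeq (GRCh38.p14). Of 39940 gene ends, 21.9% were covered by regions that all libraries called, against 2.75% and 2.86% after shifts of 10000 bp either way. Peaks on Y and M (0.082% of 1604926) were left out. Regions on X were left out of the intergenic set and the class comparisons. They stayed among the 25599 regions used for percentiles and limma, and their genes in the gene-end check.

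Percentiles and log2 covered widths were compared with limma 3.58.1 (R 4.3.3) with line as the only term and 14 residual degrees of freedom. Class differences were tested by sign flips over libraries with scipy 1.17.1. Both were tested on simulated data. Libraries held 12.8 to 67.4 M tags and 39736 to 102891 peaks, per the file headers and the lists.

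Named regions were the 10 highest, 5 lowest, 5 widest, 5 farthest, 5 most and 5 least variable, and per comparison up to 5 in each direction past the threshold or the one with the smallest p. Named genes were those with the most regions, overall and, up to 8, per list, and gaps those with the most regions or the most per Mb. Other names were chosen after their values were seen. The regions and gene lists were chosen with earlier results of these data known. Alternatives covered replicate numbers, single libraries, scales, merging, list length and the distance to genes; the reading of gene ends of all types and leaving out replicate 2 lists were added after seeing the data. One gene of the lists is not reported here by name.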

Additional observations from a re-analysis of the deposited data

How the results depend on the processing

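The number of intergenic regions was 8694 with peaks merged at 100 bp, 7875 at more than 5 kb from genes, 7427 away from the ends of all annotated genes, 10274 without SORL1-A528T replicate 2 and 5989 with each list limited to its first 39736 peaks, and 16659 without the replicate 2 libraries. Differences from gene-end regions kept their sign and passed under all alternatives run. The percentile difference from regions inside genes was 0.20 (permutation p = 0.617) with lists of equal length and -0.22 (p = 0.423) without the replicate 2 lists. It ranged from -2.42 to -0.50 when 1 replicate number was left out, not passing the permutation test without replicate 1 (p = 0.252) or replicate 3 (p = 0.0834). The causes were not tested.

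Counts of calls against WT depended on the setting. In TREM2-R47H they were 356 with the replicate number as a block, 1 with the percentile in the whole list and 50 with normal scores. Among all 25599 regions these settings gave 777, 1 and 125. The intergenic counts ranged from 0 to 155 with 1 replicate number left out and from 3 to 140 with 1 library left out. Those among all regions ranged from 0 to 329 and from 13 to 335. In SORL1-A528T the intergenic counts were 25 with the replicate block, 18 in the whole list and 5 with normal scores, against 47, 35 and 12 among all regions. The intergenic counts there went from 0 to 2 with 1 replicate number left out and from 1 to 6 with 1 library left out. With the block, TREM2-KO had 2 and SORL1-KO 1, against 6 and 5 among all regions. For width TREM2-R47H had 2 and SORL1-A528T 1 with the block, against 5 and 3. Leaving out gave 0 to 5 calls in SORL1-KO, 0 to 1 in INPP5D SNP, and for width 0 to 11 in SORL1-A528T and 0 to 1 in TREM2-KO; the largest peak gave 1 for width in SORL1-A528T. The cause was not tested. The labels do not say that replicate numbers pair libraries, and they were not taken as pairs, since not every same-numbered pair had deviations correlated over 0.1. Still, 57 of 63 did (median 0.425, against -0.294 for other pairs), and 19 of 21 libraries were closest to their own number, a hint from the data that they share something. With the replicate block TREM2-R47H had 777 calls among all regions.

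Of the 16 named regions with a call, 16 kept it with the block, 10 without replicate 1, 0 without replicate 2, 0 without replicate 3, 11 with normal scores and 3 in the whole list, and 0 of the alternatives run on the named regions changed a sign. Without peak heights or read counts, whether a region missing from 1 list was closed there cannot be told.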
